A study of Mus musculus with 52 samples.

Results

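The 89 genes described here separated tumours of old from tumours of young mice upward in the deposited TPM table. TPM is the abundance of a gene's transcripts after division by length and scaling to a fixed library total. Of 47729 gene identifiers, 12649 had a mean TPM of at least 2 over the 52 libraries. A gene was taken when its TPM was higher in the old library in at least 0.97 of the 667 possible pairs of an old with a young library, ties counted as 0.5, and 113 genes passed. Of these, 23 with symbols starting Zfp and 1 further gene were left out by the rule, which left 89. The genes were thus chosen by the TPM of old and young libraries themselves, so the differences between ages below are a description and carry no test. The mirror rule, with the old value higher in at most 0.03 of pairs, found 21 genes. The last genes inside the threshold were Prpf38a, Pex7 and Erich1, each with a share of 0.970015, and the first outside it were ENSMUSG00000071083, Klhdc2 and Scoc, each with 0.968516.

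The tumours were grown from 4T1, a Balb/C mammary carcinoma line used as a model of triple-negative breast cancer, injected at 100000 cells into the mammary fat pad of Balb/C mice. Old mice were over 12 months of age and young mice were labelled 8 to 10 weeks, while a protocol text gives 8 to 12 weeks. All mice carried the same graft and received 3 antibody injections of 200 µg on days 7, 10 and 13. Old mice gave 8 tumours under anti-PDL1 (clone 10F.9G2), 8 under anti-CTLA4 (clone 9D9) and 7 under the isotype control (clone LTF-2), and young mice gave 10, 12 and 7. Bulk tumour RNA holds carcinoma cells together with host stroma and leukocytes, so more cells of a type and more RNA per cell cannot be told apart. The design compared the ages and the antibodies, and the differences of antibody effects between ages. The libraries of a group are numbered as biological replicates with no animal named, so a p-value here reflects only how much such libraries vary, which may be technical.

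Age and sequencing batch overlapped only in part. Batch 1 held 18 old and 4 young libraries, batch 3 held 5 old and 6 young, and batch 2 held 19 young and no old library. Under isotype (old libraries in batches 1 and 3, young in batch 2) and under anti-PDL1 (all 8 old in batch 1, young in batch 2 with 1 in batch 3) the ages shared no batch, so within either antibody age and batch cannot be told apart. Deposited counts summed to between 9549847 and 53778370 per library (median 20665734). Trimmed-mean (TMM) factors, which scale a library to the bulk of its genes, ran from 0.710 to 1.21 in old and from 0.618 to 1.196 in young libraries. A TMM factor under 0.8 was found in 4 libraries, namely old isotype replicate 3, young isotype replicates 1 and 6, and young anti-CTLA4 replicate 8. The trend of log2 TPM on log2 gene length ran from -0.28 to 0.37 in old libraries (median 0.08) and from -0.64 to 0.38 in young libraries (median -0.00).

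Most of the 89 genes encode parts of general cell machinery. The ubiquitin system marks proteins for the proteasome, and cullin-RING ligases, its largest ligase family, work only when the ubiquitin-like protein NEDD8 is joined to their cullin. RNA polymerases, the spliceosome, ribosome assembly factors and translation initiation factors carry a message through to protein, and kinesins, centromere proteins and the augmin complex build and use the mitotic spindle. By known function the genes were placed in 11 groups after they had been chosen: 12 in mitosis, replication, centrosome and cilium, 12 in metabolism, mitochondria and peroxisome, 9 in transcription and chromatin, 8 in the ubiquitin, NEDD8 and proteasome system, 7 each in RNA processing and ribosome assembly, in translation and tRNA modification, and in folding and membrane traffic, 5 in phosphatases and signalling, 4 in cell surface and lymphoid genes, 5 other coding genes, and 13 predicted models, pseudogenes or unnamed genes. By the GENCODE annotation 81 were protein-coding, 3 were long intergenic noncoding RNAs, 4 were processed pseudogenes (1 of them transcribed) and 1 was not in the annotation.

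The promoters of the 5 genes of highest share are shown because these genes had the cleanest separation of the ages on TPM. The RefSeq table (GRCm38.p6) held 74 promoters for 67 of the 89 genes. The sequences give the 250 bases before the RefSeq start, read 5′ to 3′ on the gene's strand, and capitals mark matches on either strand to TATAAA (the TATA box), CCAAT (the core of the CCAAT box), GGGCGG (the core of a GC box), CACGTG (an E box), TGACGTCA (a cAMP response element), GGAAGT (an ETS-type core) or TGAGTCA (an AP-1 site). They lie at chr7:4237504-4237753 on the plus strand for Lilra5, at chr5:3543583-3543832 on the plus strand for Fam133b, at chr13:104816920-104817169 on the plus strand for Srek1ip1, at chr7:82174546-82174795 on the plus strand for Sh3gl3 and at chr12:56345895-56346144 on the minus strand for Mbip.
Lilra5: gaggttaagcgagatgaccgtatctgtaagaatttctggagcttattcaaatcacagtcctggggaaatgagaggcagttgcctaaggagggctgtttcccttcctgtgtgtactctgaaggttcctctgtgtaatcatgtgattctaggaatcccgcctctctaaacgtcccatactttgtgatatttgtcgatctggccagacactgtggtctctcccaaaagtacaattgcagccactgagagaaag
Fam133b: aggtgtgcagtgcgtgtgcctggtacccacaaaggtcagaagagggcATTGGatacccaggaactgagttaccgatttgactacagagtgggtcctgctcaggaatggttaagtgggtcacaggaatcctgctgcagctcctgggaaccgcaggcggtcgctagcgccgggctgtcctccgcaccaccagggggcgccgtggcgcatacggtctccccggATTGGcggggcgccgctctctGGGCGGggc
Srek1ip1: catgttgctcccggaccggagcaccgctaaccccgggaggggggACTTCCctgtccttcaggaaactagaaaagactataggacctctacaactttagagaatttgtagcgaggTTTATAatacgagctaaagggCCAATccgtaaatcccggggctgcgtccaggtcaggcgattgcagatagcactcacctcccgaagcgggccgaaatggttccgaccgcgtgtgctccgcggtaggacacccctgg
Sh3gl3: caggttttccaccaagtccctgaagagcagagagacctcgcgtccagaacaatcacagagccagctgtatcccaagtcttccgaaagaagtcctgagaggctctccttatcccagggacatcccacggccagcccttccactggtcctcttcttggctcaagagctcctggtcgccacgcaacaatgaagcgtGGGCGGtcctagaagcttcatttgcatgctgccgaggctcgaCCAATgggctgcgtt
Mbip: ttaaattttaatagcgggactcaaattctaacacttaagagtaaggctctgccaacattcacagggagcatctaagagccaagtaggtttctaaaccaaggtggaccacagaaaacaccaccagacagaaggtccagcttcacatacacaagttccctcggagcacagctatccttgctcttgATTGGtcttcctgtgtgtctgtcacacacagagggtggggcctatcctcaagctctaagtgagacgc
The Lilra5 window held none of these motifs, and the other 4 each held at least 1 CCAAT or its reverse complement ATTGG. Over the 74 promoters of the 89 genes, CCAAT was found in 40.5%, against 35.2% of 11380 promoters of genes with a mean TPM of at least 2. GGGCGG was found in 47.3% of the genes' promoters, against 57.4% of the promoters of those expressed genes. GGAAGT stood in 20.3% against 24.1%, TATAAA in 6.76% against 6.49%, CACGTG in 5.41% against 8.10%, and TGAGTCA in 5.41% against 3.48%. A longer consensus element of housekeeping promoters, also searched, stood in 4 of the 74 promoters (5.41%), against 2.16% of the promoters of expressed genes, and in none of the 5 shown. TGACGTCA stood in 0 of the 74 promoters, against 2.53%. The median GC content of the windows was 58.0% for the 89 genes and 59.6% for expressed genes. A match describes letters in this window only.

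Averaged over the 89 genes as mean log2(TPM + 0.1), the level ran from 4.65 to 5.31 in the 23 old libraries (median 4.88), against 3.42 to 4.47 in the 29 young libraries (median 4.15). No young library reached the lowest old library, which the choice of the genes fixes. Among old libraries the lowest was anti-PDL1 replicate 8 and the highest isotype replicate 2. Among young libraries the lowest was anti-CTLA4 replicate 8, a library of low TMM factor, and the highest anti-CTLA4 replicate 11. Old batch 1 libraries spanned 4.65 to 5.02 and old batch 3 libraries 4.76 to 5.31, against 3.42 to 4.21 in young batch 1, 3.68 to 4.44 in young batch 2 and 4.08 to 4.47 in young batch 3. Each of the 89 genes had a higher median in old than in young libraries, with log2 ratios of medians between 0.31 and 2.48 and a median of 0.71, against a median of 0.05 over the 12649 genes. Of the 89 genes Lilra5 alone showed no overlap over the 52 libraries, and 3 of the 12649 genes did so (0.0237%). At the boundary between ages, old isotype replicate 3 was the lowest old library for 30 of the 89 genes and old anti-PDL1 replicate 8 for 25, while young anti-CTLA4 replicate 11 was the highest young library for 20.

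**Figure D1:**
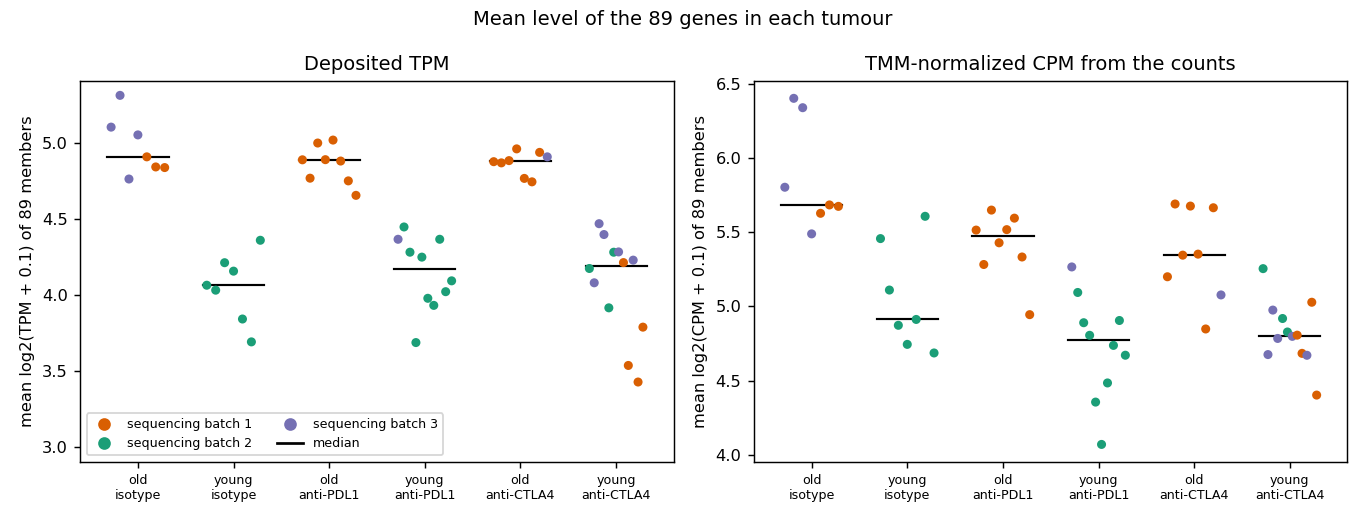
Mean level of the 89 genes in each tumour (points, coloured by sequencing batch; black lines, group medians), as mean log2(TPM + 0.1) on the left and mean log2(CPM + 0.1) after TMM scaling on the right. Old libraries lie between 4.65 and 5.31 on the TPM scale, above all young libraries at 3.42 to 4.47. On the CPM scale old libraries at 4.85 to 6.40 overlap young libraries at 4.07 to 5.61.

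The direction of the gap held on a second scaling and its tightness did not. When the deposited counts were scaled by TMM to counts per fixed library total (CPM), the same 89 genes again all had higher medians in old than in young libraries, with log2 ratios of 0.23 to 2.24 and a median of 0.61, against -0.01 over 12326 genes. The share of old-young pairs with the old value higher then ran from 0.679 to 0.999 over the 89 genes with a median of 0.885, against 0.485 over the 12326 genes. A share of at least 0.90 was kept by 39 of the 89 genes (43.8%), against 3.98% of the 12326, and a share of at least 0.80 by 73 (82.0%), against 11.6%. The rule itself, run on CPM, passed 74 genes, of which 6 are among the 89: Kif18a, Brix1, Rpgr, Gm10282, Hmgb1-ps1 and ENSMUSG00000096252. The mean level of the 89 genes on that scale was 4.85 to 6.40 log2 CPM in old libraries (median 5.52), against 4.07 to 5.61 in young libraries (median 4.81), and the ages overlapped. A library's median log2 ratio of TPM to TMM-scaled CPM, relative to the mean over libraries, ran from -0.88 to 0.60 in old libraries, lowest in isotype replicate 3, and from -1.23 to 0.61 in young libraries, lowest in isotype replicate 6. Counts of genes without overlap are therefore given on both scales for each antibody and for batches 1 and 3. The counts by function and the genes named as free of overlap are on TPM only.

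**Figure D2:**
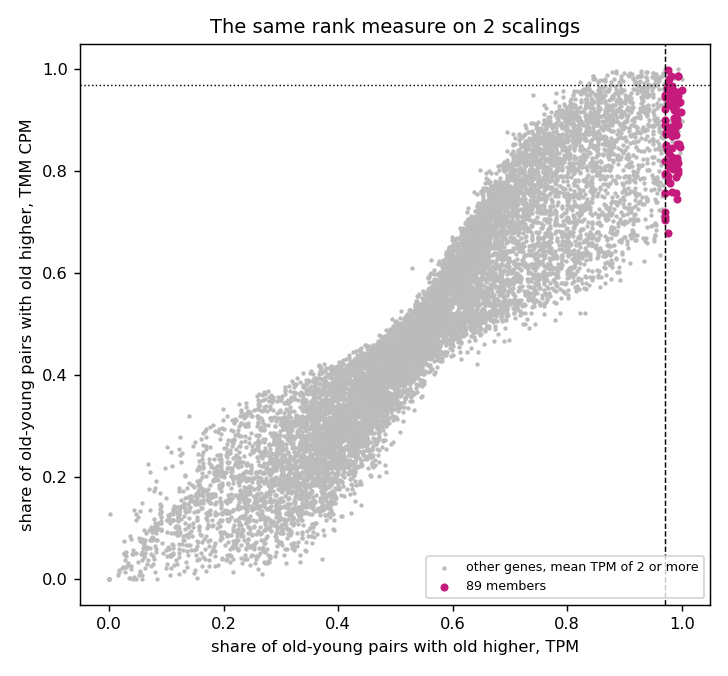
Share of old-young library pairs with the old value higher, per gene, from TPM (horizontal axis) and from TMM-scaled CPM (vertical axis); coloured points are the 89 genes, grey points the other genes, and lines mark a share of 0.97. The 89 genes lie right of the dashed line by choice and spread from 0.679 to 0.999 on the vertical axis.

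Under the isotype antibody, 65 of the 89 genes (73.0%) had every old library above every young library, against 2.41% of the 12649 genes. The median log2 ratio of old to young medians was 0.84 for the 89 genes and 0.13 for all genes, and the median share of pairs was 1 against 0.531. Under anti-PDL1, 31 genes (34.8%) had no overlap, against 0.791% of all genes, with a median log2 ratio of 0.61 against 0.02 and a median share of 0.988 against 0.512. Under anti-CTLA4, 39 genes (43.8%) had no overlap, against 1.54%, with a median log2 ratio of 0.68 against 0.15 and a median share of 0.9896 against 0.635. All 89 log2 ratios were above 0 under each antibody. The groups differ in size (7 against 7, 8 against 10 and 8 against 12 libraries), and a larger group overlaps more readily, so these counts do not rank the antibodies. On the TMM CPM scale the genes without overlap numbered 26 under isotype (2.53% of 12326 genes), 3 under anti-PDL1 (0.325%) and 6 under anti-CTLA4 (1.18%).

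Lilra5, Fam133b, Ggps1, Kif18a, Ebag9 and Gm26619 had no overlap on TPM under all 3 antibodies, as did 8 of the 12649 genes. Lilra5, Fam133b, Ggps1 and Kif18a also had none within batch 1 and within batch 3. Ergic2, Armc1, Depdc1a, 1110004F10Rik and Gm10123 overlapped under each of the antibodies.

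**Figure D3:**
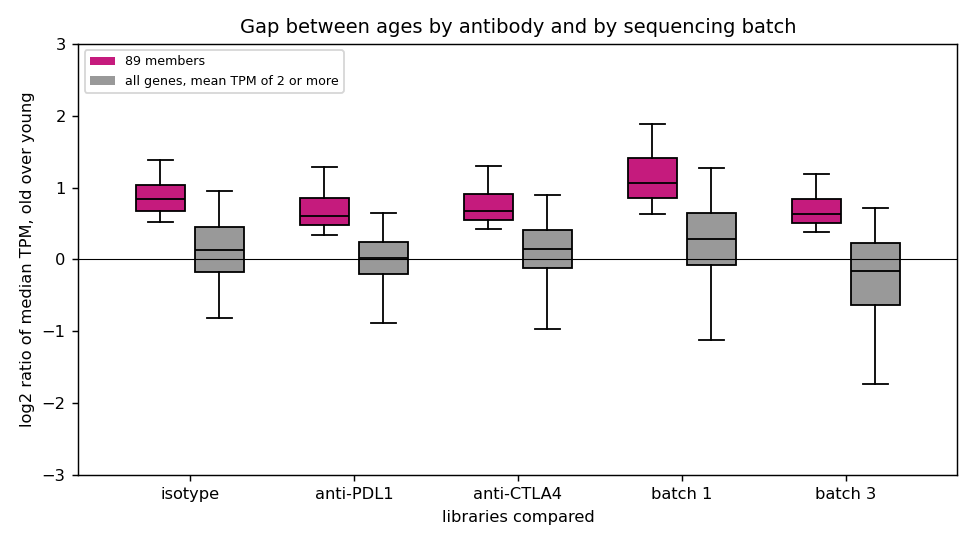
Log2 ratio of the median TPM of old to young libraries under each antibody and within each batch that held both ages, for the 89 genes (coloured boxes) and all 12649 genes of mean TPM at least 2 (grey boxes); boxes span the quartiles, centre lines are medians and whiskers reach the 5th and 95th percentiles. The medians of the 89 genes are 0.84, 0.61, 0.68, 1.07 and 0.64 from left to right, against 0.13, 0.02, 0.15, 0.28 and -0.16 for all genes.

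Within sequencing batch 1, where 18 old and 4 young tumours were read together, the gap was wider than under any of the 3 antibodies pooled over batches. No overlap was seen for 78 of the 89 genes (87.6%), against 7.91% of the 12649 genes, and the median log2 ratio was 1.07 (0.38 to 2.42) against 0.28. The 4 young libraries were all of anti-CTLA4 (replicates 5, 6, 8 and 9), while the old libraries spanned the 3 antibodies. With old anti-CTLA4 alone, 7 old against the same 4 young libraries, 83 genes (93.3%) had no overlap, against 12.8% of all genes, and the median log2 ratio was 1.08 against 0.31. The young libraries were not alike: replicate 5 was the highest of the 4 for 83 of the 89 genes, and replicate 8 was the lowest for 56 and replicate 6 for 28. Without replicate 5, all 89 genes were free of overlap in batch 1, and without any other of the 4 the number stayed at 78. The share over all genes is not given for these subsets. Other measures of these libraries moved with age, and their part in the gap was not tested. The mean log2 TPM of ribosomal protein genes was 9.13 to 9.69 in old batch 1 libraries (median 9.60), against 9.44 to 9.83 in the young ones (median 9.77). The length trend was -0.25 to 0.34 in old (median 0.09), against -0.64 to 0.08 in young batch 1 libraries (median -0.15), and the TMM factor 0.974 to 1.21 in old, against 0.735 to 1.04 in young, and the ages overlapped in all 3 measures. On TMM CPM, 23 genes had no overlap in batch 1 (5.70% of 12326 genes) and 24 in anti-CTLA4 alone within it (8.79%).

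The 11 genes that overlapped within batch 1 were Sh3gl3, Glmn, Aaed1, Eif3e, Mrpl1, Tmem40, Taf1d, Pex7, Erich1, Gm6712 and Gm10420. Within batch 3, with 5 old libraries (4 isotype, 1 anti-CTLA4) and 6 young libraries (5 anti-CTLA4, 1 anti-PDL1), 50 genes (56.2%) had no overlap, against 2.84%, and the median log2 ratio was 0.64 against -0.16. On TMM CPM the number was 18 (5.00%). There old isotype replicate 3, with a TMM factor of 0.710, was the lowest old library, and without libraries of low TMM factor 80 genes had no overlap on TPM. A smaller group overlaps less readily, and the share over all genes is not given for this subset. Both batches were free of overlap for 40 of the 89 genes and for 103 of the 12649.

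Lilra5, a leukocyte immunoglobulin-like receptor whose human counterpart is an activating receptor of myeloid cells, had the widest gap. It lies on chromosome 7 from 4237754 to 4243463, plus strand (mm10). It measured 5.21 to 9.81 TPM (median 6.65) in old isotype tumours, against 0.141 to 3.06 TPM (median 1.38) in young isotype tumours. Under anti-PDL1 it was 4.92 to 10.4 TPM (median 6.17) in old tumours and 0.243 to 2.95 TPM (median 1.05) in young tumours, and under anti-CTLA4 3.78 to 9.09 TPM (median 6.83) in old tumours and 0.337 to 3.32 TPM (median 1.41) in young tumours. Every old tumour lay above every young one, with a log2 ratio of medians of 2.48. In batch 1 the old libraries had 3.78 to 10.4 TPM (median 6.17) and the 4 young libraries 0.337, 0.809, 1.48 and 3.13 TPM. In batch 3 the 5 old libraries had 5.21, 5.95, 6.65, 7.46 and 9.81 TPM, against 0.376, 0.497, 0.995, 1.201, 1.33 and 1.804 TPM in the 6 young libraries. Few reads lie behind the young values, with 139 to 770 deposited counts in old libraries and 6 to 139 in young libraries. On TMM CPM its share of pairs was 0.960. Its correlation with the other members within groups and batches was low (median r 0.12 over 50 libraries).

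Xlr, an X-linked lymphocyte-regulated gene, read 3.13 to 10.6 TPM (median 5.62) in old tumours, against 0.829 to 4.37 TPM (median 1.55) in young tumours, with a log2 ratio of 1.86. The 4 young libraries of batch 1 had 1.14, 1.26, 1.4997 and 1.72 TPM, against 3.13 to 9.73 TPM (median 5.14) in old batch 1 libraries. Young batch 3 libraries were mostly higher, at 1.63, 2.85, 2.92, 3.76, 4.01 and 4.37 TPM, and still below the old batch 3 libraries at 5.97, 6.95, 7.01, 7.74 and 10.6 TPM. Xlr belongs to a family of near-identical X-linked copies, so its counts are uncertain, and they were 9 to 144 in young libraries. Tmem40, a transmembrane protein, stood at 11.2 to 26.9 TPM (median 19.2) in old tumours, against 2.41 to 16.4 TPM (median 8.29) in young tumours, and young replicate 5 of anti-CTLA4, at 15.002 TPM, lay inside the old range of batch 1. Mpzl3, a myelin protein zero-like adhesion protein of skin and sebaceous glands, had a log2 ratio of 0.81, and a single old library, isotype replicate 3, lay among the young ones.

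**Figure D4:**
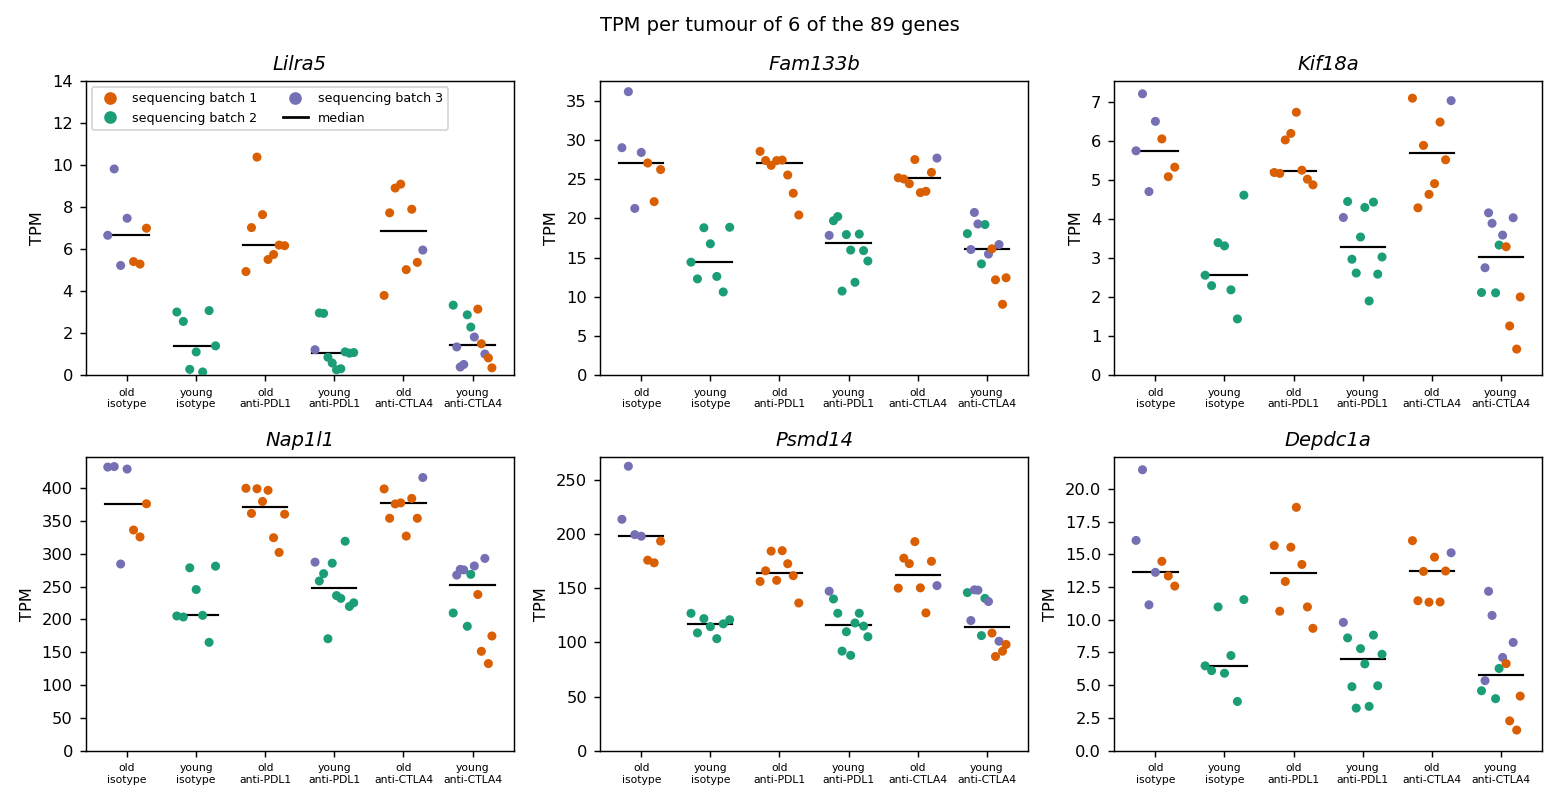
TPM of Lilra5, Fam133b, Kif18a, Nap1l1, Psmd14 and Depdc1a in each tumour by group (points, coloured by sequencing batch; black lines, group medians). Lilra5 shows no overlap between old and young tumours, at 3.78 to 10.4 against 0.141 to 3.32 TPM, while for Depdc1a 5 young libraries exceed the lowest old library.

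In the ubiquitin, NEDD8 and proteasome group the 8 log2 ratios ran from 0.51 to 1.04, with 7 of 8 genes free of overlap in batch 1 and 6 of 8 under isotype. Of all the chosen genes, 87.6% had no overlap in batch 1 and 73.0% under isotype, against 7.91% and 2.41% of the 12649 genes. High counts by function, here and below, thus follow in part from the choice, and differences between functions were not tested. Skp1a, the adaptor of SCF ligases, was at 179.7 to 312 TPM (median 223) in old tumours, against 113 to 193 TPM (median 149.8) in young tumours. Psmd14, the deubiquitinase of the proteasome lid, was at 127 to 263 TPM (median 174) in old tumours, against 87.03 to 149 TPM (median 117) in young tumours, and in batch 1 the young libraries had 87.03, 91.9, 98.1 and 109 TPM. Both genes separated the ages in batch 1, and 3 young libraries for Skp1a and 7 for Psmd14 exceeded the lowest old library overall. Psmc6, an ATPase of the proteasome base, had a median of 123 TPM in old and 81.1 TPM in young tumours. Nae1, a subunit of the enzyme that activates NEDD8, and Dcun1d5, which promotes its transfer to cullins, had log2 ratios of 0.76 and 0.71. Glmn (glomulin), which binds and inhibits cullin-RING ligases, was 9.73 to 21.1 TPM (median 14.2) in old tumours, against 3.63 to 10.6 TPM (median 7.197) in young tumours, so genes of both activation and inhibition of these ligases were higher in old tumours. Ube2v2, the inactive partner of a ubiquitin-conjugating enzyme in DNA damage signalling, had the largest ratio of the group (1.04). Zfand1, whose human protein brings the proteasome to stress granules, was 18.2 to 26.9 TPM (median 21.9) in old tumours, against 10.8 to 18.98 TPM (median 15.4) in young tumours.

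In transcription and chromatin the 9 ratios lay between 0.47 and 0.84, and 8 of 9 genes had no overlap under isotype and 8 in batch 1. Under anti-PDL1, under anti-CTLA4 and in batch 3 the count was 3 each. Over all the chosen genes the shares were 73.0% under isotype and 87.6% in batch 1. They were 34.8%, 43.8% and 56.2% in the other 3 sets, in the order given. Nap1l1, a chaperone of histones H2A and H2B, was the most abundant at 284 to 433 TPM (median 376) in old tumours, against 133 to 319 TPM (median 238) in young tumours. Its young batch 1 libraries had 133, 151, 175 and 238 TPM, below every old library, and the young batch 3 libraries, at 268 to 293 TPM (median 279), came closer to the old ones of that batch at 284 to 433 TPM (median 429). Mbip, a subunit of the ATAC acetyltransferase complex, was 13.9 to 21.1 TPM (median 18.01) in old tumours, against 7.05 to 14.1 TPM (median 10.8) in young tumours, and 3 young libraries exceeded the lowest old library. Subunits serving all 3 nuclear polymerases were present: Twistnb (log2 ratio 0.80) and Taf1d (0.84) of RNA polymerase I and its promoter factor, Tcea1 (0.60) and Cdk7 (0.48) of polymerase II elongation and initiation, and Gtf3c6 (0.52) of the polymerase III factor TFIIIC. Asf1a, a histone H3-H4 chaperone, and Hmgb3, a high mobility group protein, had ratios of 0.47 and 0.69.

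RNA processing and ribosome assembly held 7 genes with ratios of 0.31 to 1.32, and all 7 were free of overlap in batch 1. So were 87.6% of all the chosen genes. Of the 7 genes, 4 had no overlap under isotype, and 3 each under anti-PDL1, under anti-CTLA4 and in batch 3. The shares over all the chosen genes were 73.0%, 34.8%, 43.8% and 56.2% in that order. Brix1, needed to assemble the large ribosomal subunit, was 43.8 to 73.8 TPM (median 62.1) in old tumours, against 11.05 to 57.7 TPM (median 24.9) in young tumours. Its young batch 1 values were 11.05, 12.4, 17.3 and 28.8 TPM, against 50.8 to 73.8 TPM (median 61.04) in old batch 1 libraries, and 5 young libraries of the other batches exceeded the lowest old library. Srek1ip1, a partner of a splicing regulator, was 13.9 to 21.5 TPM (median 15.2) in old tumours, against 6.71 to 13.95 TPM (median 9.95) in young tumours, and its log2 ratio was 0.90 in batch 1 and 0.25 in batch 3. Ak6, a nuclear adenylate kinase whose yeast counterpart acts in small subunit maturation, was 102 to 172 TPM (median 127) in old tumours, against 64.5 to 114 TPM (median 88.6) in young tumours. Ppil3, a spliceosomal cyclophilin, had the smallest ratio of all 89 genes (0.31), at 57.4 to 81.2 TPM (median 64.8) in old tumours, against 39.3 to 60.2 TPM (median 52.3) in young tumours. Prpf38a of the spliceosome (0.39), the RNA-binding protein Rbm34 (0.77) and Mphosph6 of the RNA exosome (0.48) completed the group.

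Among translation and tRNA genes, 7 ratios of 0.51 to 0.73 were found, with 6 genes free of overlap under isotype and 0 of 7 under anti-PDL1. The count was 3 under anti-CTLA4, 5 in batch 1 and 5 in batch 3. Over all the chosen genes the 5 shares were 73.0%, 34.8%, 43.8%, 87.6% and 56.2%, in the order given. Eif3e, a subunit of initiation factor 3, was 300.4 to 467 TPM (median 375) in old tumours, against 177 to 343 TPM (median 263) in young tumours, and young anti-CTLA4 replicate 5, at 315 TPM, overlapped the old libraries in batch 1. Eif2s1, the alpha subunit of initiation factor 2 on which stress kinases act, was 60.3 to 108 TPM (median 72.7) in old tumours, against 32.7 to 67.04 TPM (median 48.8) in young tumours. The tRNA-modifying enzymes Trmt11, Trmt10c and Osgepl1 had ratios of 0.73, 0.63 and 0.62, the last 2 being mitochondrial. N6amt1, a methyltransferase that modifies a translation release factor, and the mitochondrial ribosomal protein Mrpl1 both stood at 0.57.

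In mitosis, replication, centrosome and cilium all 12 genes were free of overlap in batch 1, and 9 of 12 were so under anti-CTLA4. Of all the chosen genes 87.6% and 43.8% were so, against 7.91% and 1.54% of the 12649 genes. The full count in batch 1 thus follows in part from the choice. The count was 7 under isotype, 2 under anti-PDL1 and 7 in batch 3. There the shares over all the chosen genes were 73.0%, 34.8% and 56.2%. Kif18a, a kinesin that aligns chromosomes at metaphase, was 4.28 to 7.203 TPM (median 5.51) in old tumours, against 0.662 to 4.61 TPM (median 3.02) in young tumours. Under isotype it was 4.698 to 7.203 TPM (median 5.74) in old tumours, against 1.43 to 4.61 TPM (median 2.55) in young tumours, and the same order held under anti-PDL1 and anti-CTLA4 with no overlap. In batch 1 the old libraries had 4.28 to 7.09 TPM (median 5.28), against 0.662, 1.25, 1.998 and 3.28 TPM in the 4 young ones, a log2 ratio of 1.69. Kif18a kept a share of 0.988 on TMM CPM, and was thus among the genes least dependent on the scaling. Depdc1a, a mitotic protein, was 9.34 to 21.5 TPM (median 13.7) in old tumours, against 1.57 to 12.2 TPM (median 6.47) in young tumours, with young batch 1 values of 1.57, 2.27, 4.16 and 6.65 TPM. Of the centromere and spindle genes, the cohesin protector Sgo1 had a ratio of 0.69, Cenpq of the inner centromere network 0.59 and Haus2 of augmin 0.65. Shcbp1, linked to spindle midzone signalling, had 0.55 and Prim1, the primase subunit that makes RNA primers for replication, 0.50. Of the genes of centrioles and cilia the ratios were 1.15 for the ciliary Hedgehog regulator Efcab7, 1.01 for the tubulin carboxypeptidase Agbl3, 0.94 for the cilium transition zone protein Rpgr, 0.77 for centrin 3 (Cetn3) and 0.73 for the Arl2-binding protein Arl2bp.

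In metabolism the 12 ratios ran from 0.46 to 0.91, and 10 of 12 genes were free of overlap in batch 1. The count was 8 under isotype, 6 under anti-PDL1, 4 under anti-CTLA4 and 7 in batch 3. Over all the chosen genes the shares were 87.6% in batch 1, then 73.0%, 34.8%, 43.8% and 56.2% in that order. Idi1 and Ggps1 act in the isoprenoid branch of the mevalonate pathway. Idi1 was 22.3 to 54.8 TPM (median 28.03) in old tumours, against 4.86 to 26.3 TPM (median 15.8) in young tumours, and its batch 1 ratio of 1.78 was the largest of the group. Ggps1, which makes geranylgeranyl diphosphate, was 10.9 to 15.5 TPM (median 12.9) in old tumours, against 6.88 to 11.9 TPM (median 9.38) in young tumours, and had no overlap under any antibody. Pex3, a membrane factor of peroxisome formation, and Pex7, the import receptor of a class of peroxisomal enzymes, had ratios of 0.80 and 0.61. The mitochondrial genes were Apoo of the cristae organising complex (0.54), the inner membrane protease Yme1l1 (0.83), Cbr4 of mitochondrial fatty acid synthesis (0.47) and Armc1 (0.64). Aasdhppt, which attaches the phosphopantetheine arm to carrier proteins, had 0.91 and Rfk, the riboflavin kinase, 0.81. The thioredoxin-like genes were Aaed1, at 34.5 to 54.7 TPM (median 41.6) in old tumours, against 20.1 to 37.4 TPM (median 28.8) in young tumours, and Txnl1 (0.60), which binds the proteasome.

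Folding and membrane traffic spanned ratios of 0.41 to 1.43. Sh3gl3, endophilin A3 of endocytosis, was 2.41 to 6.67 TPM (median 4.39) in old tumours, against 0.4501 to 2.61 TPM (median 1.63) in young tumours, with 9 to 125 counts in young libraries. Its young batch 1 values were 0.4501, 1.59, 1.699 and 2.44 TPM, and the highest of them passed the lowest old library of that batch at 2.41 TPM. Overall 2 young libraries exceeded the lowest old one. Tmed2, a cargo receptor between endoplasmic reticulum and Golgi, was the most abundant of the group at 342 to 495 TPM (median 390.2) in old tumours, against 228 to 368 TPM (median 293) in young tumours, with 6 young libraries above the lowest old library. Ebag9, a modulator of secretion, was 22.3 to 34.5 TPM (median 27.1) in old tumours, against 9.97 to 24.5 TPM (median 18.95) in young tumours, and the old isotype replicate 3 at 22.3 TPM was the only old library below the highest young one. Vbp1, a subunit of prefoldin, had 0.86, Rxylt1, a glycosyltransferase of dystroglycan, 0.77, Ergic2 of the intermediate compartment 0.75 and the endosomal GTPase Rab9 0.53.

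The 5 phosphatase and signalling genes had ratios of 0.64 to 1.15, and all 5 were free of overlap in batch 1. The count was 3 under isotype, 3 under anti-PDL1, 2 under anti-CTLA4 and 2 in batch 3. Over all the chosen genes the shares were 87.6% in batch 1, then 73.0%, 34.8%, 43.8% and 56.2% in that order. Ppp1cb, a catalytic subunit of protein phosphatase 1, was 99.3 to 189 TPM (median 122) in old tumours, against 30.9 to 109 TPM (median 64.7) in young tumours. Ppp1r14c, an inhibitor of that phosphatase, was 10.3 to 20.7 TPM (median 15.2) in old tumours, against 2.67 to 13.1 TPM (median 6.85) in young tumours, so the catalytic subunit and an inhibitor were both higher in old tumours. Mob4, of the striatin phosphatase and kinase complex, had 0.91 and Ppp2r3c, a regulatory subunit of phosphatase 2A, 0.65. Memo1, a mediator of cell motility downstream of ErbB2, was 52.7 to 85.7 TPM (median 66.9) in old tumours, against 25.5 to 55.99 TPM (median 42.9) in young tumours. Of the other coding genes, Fam133b, a gene of little-known function with the second highest share, was 20.4 to 36.2 TPM (median 26.3) in old tumours, against 9.03 to 20.8 TPM (median 16.03) in young tumours. Its batch 1 young values were 9.03, 12.2, 12.4 and 16.1 TPM, and only young anti-CTLA4 replicate 11 exceeded the lowest old library. Mospd1 (0.93), Ankrd49 (0.55), 1110004F10Rik (0.53) and Erich1 (0.41) made up the rest.

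The 13 predicted models, pseudogenes and unnamed genes had ratios of 0.50 to 1.49. Reads of processed pseudogenes and gene copies cannot be assigned with certainty by the counting used, so these values are uncertain. Gm10123, a processed pseudogene, was the most abundant of the 89 genes, at 2346 to 3971 TPM (median 3011) in old tumours, against 1125 to 2697 TPM (median 1799) in young tumours. Gm26619 was 208 to 432 TPM (median 348) in old tumours, against 51.3 to 241 TPM (median 139) in young tumours, and its median r with the other members within groups and batches was -0.13. Gm10282 was 18.3 to 37.97 TPM (median 26.8) in old tumours, against 5.63 to 20.6 TPM (median 9.53) in young tumours. Gm3604 was 3.85 to 8.504 TPM (median 5.28) in old tumours, against 0.7299 to 4.61 TPM (median 2.09) in young tumours. These genes carry no named function here, and each kept a higher median in old tumours in both batches. Gm20939 was 2.61 to 6.07 TPM (median 4.15) in old tumours, against 0.809 to 3.81 TPM (median 1.92) in young tumours.

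**Figure D5:**
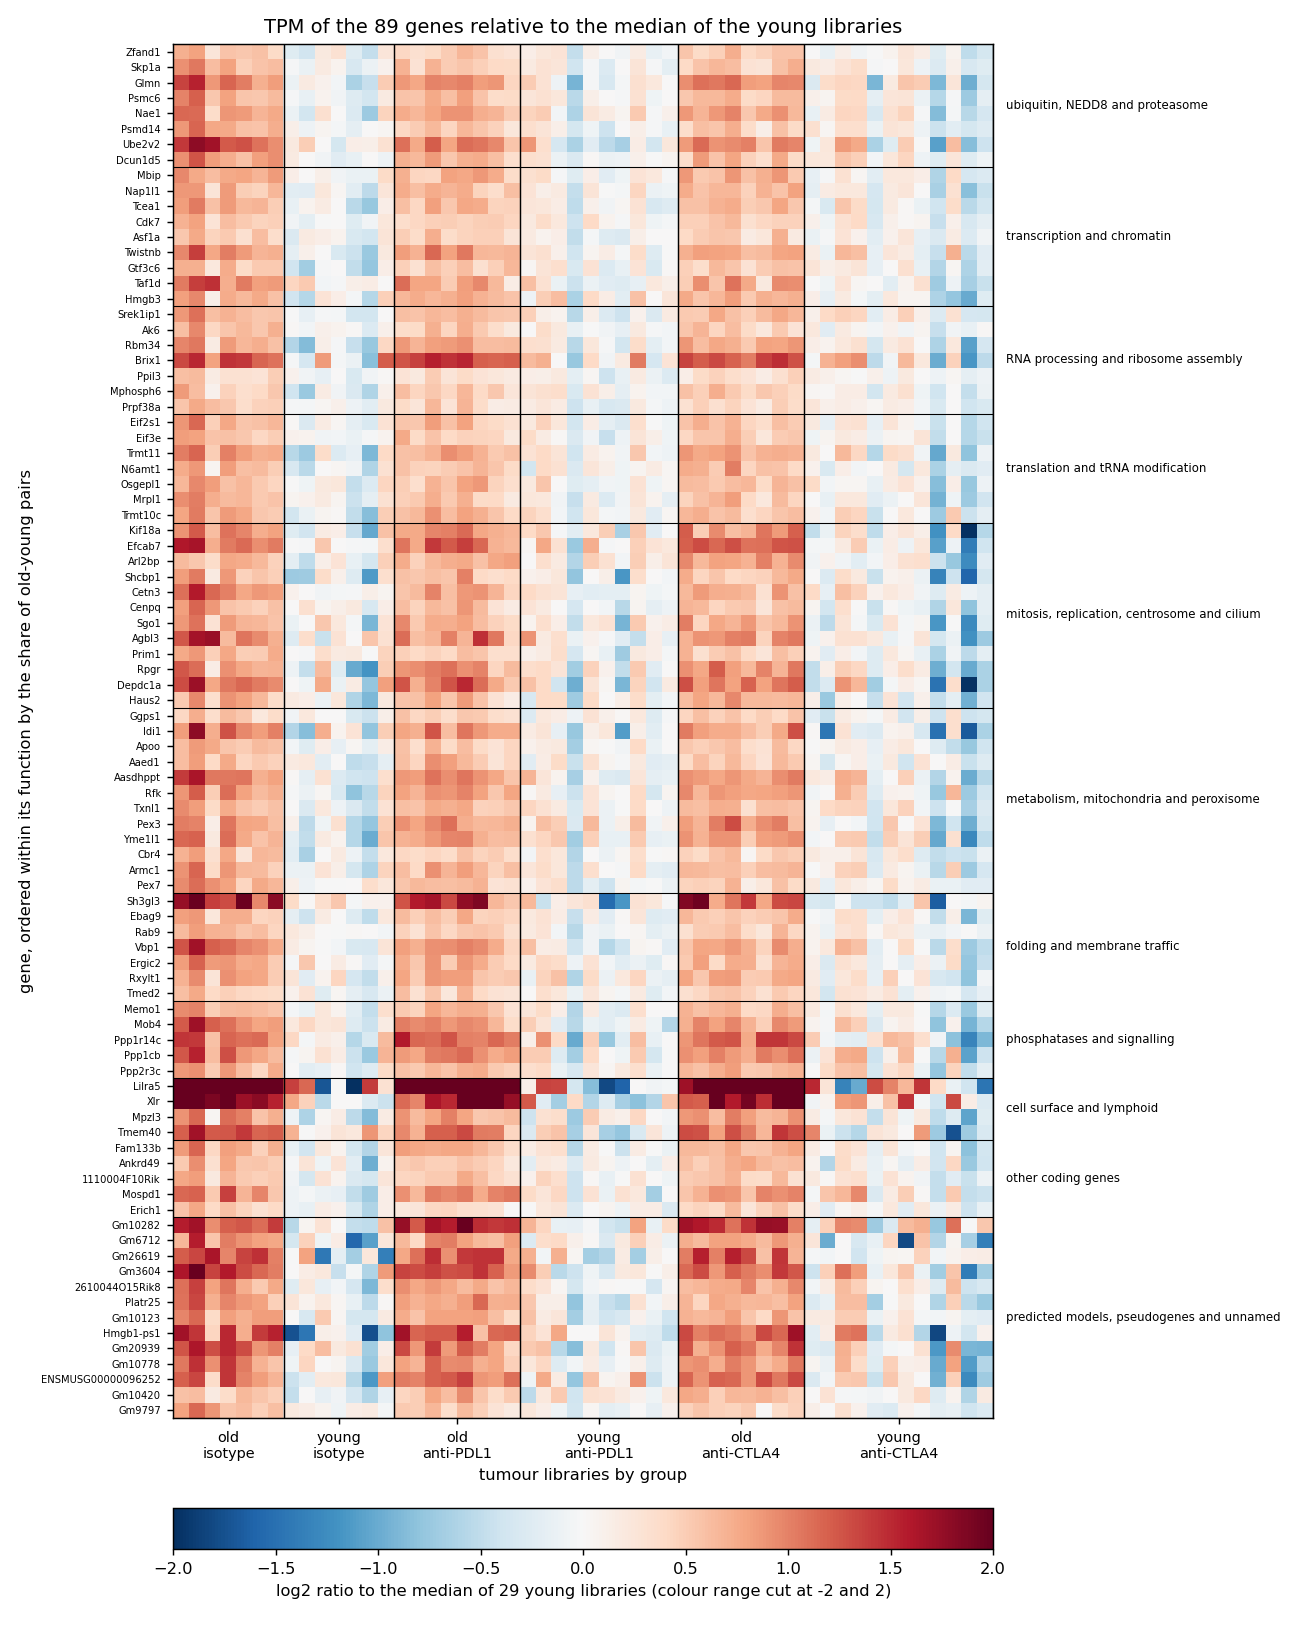
TPM of each of the 89 genes (rows, by function) in each of the 52 tumours (columns, by group, old left of young for each antibody) as the log2 ratio to the median of the 29 young libraries. Old columns are red in nearly every row, with the strongest colour for Lilra5 and Xlr; pale old columns include isotype replicate 3, the third column from the left, and deep blue young columns include anti-CTLA4 replicate 8, second from the right.

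Beyond the rule, some features of the genes were set beside those of all genes, without a test. Their relative effective length, on which the median gene is 1, had a median of 0.792 against 1 for all genes, and their mean TPM a median of 18.2 against 12.6. Chromosome 10 held 11 of the 89 genes (12.4%, against 4.43% of all genes), chromosome 13 held 10 (11.2% against 3.52%), chromosome 8 held 9 (10.1% against 5.28%) and the X chromosome 7 (7.87% against 2.94%). Other chromosomes went the other way, among them 11 (2.25% against 8.52%), 4 (2.25% against 6.29%), 7 (3.37% against 7.31%) and 2 (4.49% against 7.83%). The counts per chromosome are small. Pairs within 1 Mb of each other were Ak6 with Cdk7, 36.3 kb apart on chromosome 13, Gm3604 with Platr25, 288.6 kb apart on chromosome 13, Ankrd49 with Taf1d on chromosome 9, and Mospd1 with Xlr on the X chromosome. Correlations were taken over 50 libraries, with the mean of each group within each batch removed. The median pairwise r between the 89 genes was 0.55, against 0.409 between pairs of all genes, where shared scaling and length trends enter every r. Memo1 (median r 0.73), Psmc6 (0.72) and Eif2s1 (0.71) moved most closely with the other members, and Gm26619, Xlr (-0.08) and Lilra5 least.

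The antibody comparisons were not themselves used to choose the genes, and they were tested. However, the rule pooled the antibodies and favoured genes whose TPM varied little within an age. Genes that an antibody shifted strongly were thus less readily chosen, and the lack of calls below is in part fixed by the choice. With edgeR's quasi-likelihood test on the deposited counts, with group and batch terms and Benjamini-Hochberg adjustment over 17899 genes, 0 of the 89 genes passed an adjusted p of 0.05 for anti-PDL1 against isotype in old mice, where 0% of all genes passed as higher and 0% as lower. The count was again 0 of 89 for anti-CTLA4 against isotype in old mice (0% higher and 0% lower of all genes), for anti-PDL1 in young mice (0.223% higher and 1.37% lower) and for anti-CTLA4 in young mice (0.00559% higher and 0.067% lower). At an unadjusted p under 0.05 the counts were 42, 62, 47 and 19 of 89 in that order, against 5379, 5321, 4339 and 1247 of 17899 genes. DESeq2 called 8, 9, 9 and 0 of the 89 genes, all lower, where it called 11.4%, 7.61%, 4.82% and 0.285% of all genes in either direction, and limma on log2(TPM + 0.1) called 0 in each. The median log2 fold change of the 89 genes was -0.39, -0.44, -0.34 and -0.23 in edgeR, against 0.05, 0.02, 0.02 and -0.04 over all genes. On the TPM scale the medians were 0.07, 0.04, 0.09 and 0.07 for the 89 genes, against 0.43, 0.48, 0.40 and 0.24 over all genes. The sign of the median of the 89 genes thus changed with the scaling. Relative to the median of all genes, the median of the 89 genes was lower in each of the 4 comparisons on both scales. On the TPM scale the choice in part fixes this, since the rule favoured genes whose TPM varied little within an age. Without the 4 libraries of low TMM factor the edgeR medians were -0.34 and -0.38 under anti-PDL1 and anti-CTLA4 in old mice, against 0.03 and 0.01 over all genes, but -0.10 against 0.02 under anti-PDL1 and -0.02 against -0.02 under anti-CTLA4 in young mice, so in young mice the shift was smaller without them and under anti-CTLA4 nearly absent.

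Among single genes, the smallest adjusted p of the antibody comparisons was that of Prim1 for anti-PDL1 against isotype in young mice, with a log2 fold change of -0.59 ± 0.17 (SE) and an adjusted p of 0.0536 by edgeR. In the same comparison Ube2v2 had -0.79 ± 0.23 with an adjusted p of 0.0556 by edgeR. In old mice under anti-PDL1, where several of the 89 genes shared the smallest adjusted p, Ak6 had -0.64 ± 0.22 and Erich1 -0.64 ± 0.20, both with an adjusted p of 0.0878 by edgeR. None of these passed. The difference of the antibody effect between ages, which is also the difference of the age gap between antibodies, was called by edgeR for 0 of 89 genes for anti-PDL1 (0% of all genes) and for 0 for anti-CTLA4 (0%). At an unadjusted p under 0.05 those counts were 0 and 2 of 89, against 655 and 1257 of all genes, DESeq2 called 0 of the 89 in each (0.168% and 0.0894% of all genes), and the median difference was -0.04 and -0.20. The counts of genes without overlap, which were higher under isotype than under the other antibodies, are thus not shown to differ between antibodies gene by gene. Since the rule pooled the antibodies, the lack of calls for this difference is also in part fixed by the choice.

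Batch 2 held only young libraries, so its level was tested against batches 1 and 3 within the same fit. The rule favoured genes that were low in the young libraries, 19 of 29 of which are of batch 2, so a gene high in batch 2 could hardly be chosen, and the count of higher genes and the median below are in part fixed by the choice. By edgeR 0 of the 89 genes passed as higher, where 2.12% of all genes did, and 1 as lower, where 1.05% did. That gene was Gm10282, with a log2 difference of -0.79 ± 0.21 (SE) and an adjusted p of 0.0299 by edgeR. DESeq2 also called 1 of the 89 genes, where it called 6.11% of all genes in either direction, and limma 1. An unadjusted p under 0.05 by edgeR was found for 4 of the 89, against 3448 of 17899 genes, and the median difference was 0.02 over the 89 genes and -0.02 over all genes.

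Markers of other cells moved with age in the same libraries. The epithelial and carcinoma markers, 8 genes that include the keratins Krt8, Krt18, Krt14 and Krt5, summed to 699 to 2239 TPM in old tumours (median 1613), against 286 to 2403 TPM in young tumours (median 1251). By edgeR, old against young, 5 of the 8 rose and 0 fell under anti-CTLA4 (14.8% of all genes higher, 15.9% lower), 1 rose under isotype (4.36% higher, 4.04% lower) and 0 passed under anti-PDL1 (3.08% higher, 1.97% lower). Under anti-CTLA4 several leukocyte and blood lists went the other way: 8 of 10 T cell, 6 of 8 natural killer, 9 of 10 neutrophil, 5 of 6 mast cell and 4 of 5 erythroid markers fell in old tumours and none of them rose, while 4 of 10 macrophage and 0 of 6 plasma cell markers fell. Under isotype the same lists had 0, 2, 0, 1 and 0 lower genes, and under anti-PDL1 0, 1, 6, 1 and 3. Under these 2 antibodies the ages shared no batch, so their age contrasts rest on batch terms drawn from other groups. Standard errors were also smaller under anti-CTLA4, for Fam133b 0.16 against 0.23 under each of the others. The numbers of calls thus do not show that the age difference depends on the antibody. The medians differed less than the calls for T cells: their median log2 fold change was -1.76 under isotype, -1.53 under anti-PDL1 and -1.81 under anti-CTLA4. The medians of the T cell sums lay close together, however. T cell markers summed to 18.7 to 388 TPM in old tumours (median 106), against 43.4 to 1086 TPM in young tumours (median 114). Neutrophil markers summed to 139 to 8667 TPM in old tumours (median 465.7), against 221 to 4915 TPM in young tumours (median 1131), and erythroid markers to 179 to 756 TPM (median 423), against 226 to 3399 TPM (median 1154). B cell markers summed to 3.17 to 518 TPM in old tumours (median 44.48), against 2.31 to 1099 TPM in young tumours (median 10.53). Their median log2 fold change by edgeR was -3.30 under isotype, -3.37 under anti-PDL1 and -1.14 under anti-CTLA4. The sums and the fold changes of B cell markers thus differed in direction, and 0 of 10 passed under each antibody. No list had a defining gene at 0 in all libraries. The part of cell composition in the gap of the 89 genes was not tested.

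Other genes of the same pathways, from lists that hold none of the 89, can be read against the shares of all genes called. Under anti-CTLA4, where 14.8% of all genes rose and 15.9% fell, 4 of 20 ubiquitin ligase and proteasome genes rose in old tumours (Psmd1, Cul3, Cul5 and Itch) and 0 fell, and 5 of 28 splicing genes rose and 1 fell. Likewise 8 of 19 DNA repair and telomere genes rose and 0 fell, as did 5 of 20 chromatin regulators with 0 lower, while of 11 cell cycle genes 0 rose and 1 fell, and of 18 membrane traffic genes 3 rose and 0 fell. Under isotype and under anti-PDL1 the ages shared no batch, and these contrasts rest on batch terms drawn from other groups. The counts therefore do not compare the antibodies. Under isotype the same lists differed in direction. There were 0 higher and 3 lower for splicing, 1 and 2 for ubiquitin, and 1 and 1 for chromatin (median log2 fold change -0.61). DNA repair had 2 and 0, cell cycle 0 and 0, and membrane traffic 3 and 0, so DNA repair and membrane traffic again had higher genes only. Under anti-PDL1 the counts were 2 and 1, 1 and 0, 1 and 0, 0 and 0, 0 and 0, and 2 and 0 in that order. Among 12 cytosolic ribosomal protein genes 0 passed in either direction under any antibody, and the mean over ribosomal protein genes was 9.13 to 9.90 log2 TPM in old libraries and 9.26 to 9.98 in young ones. The median share of old-young pairs was 0.599 for the ubiquitin list, 0.602 for splicing and 0.571 for cell cycle, against 0.541 over all genes. In 14 interferon response genes 0 rose and 10 fell under anti-CTLA4, and 0 passed under isotype and under anti-PDL1.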

How the data were processed

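RNA of 52 tumours was read as stranded poly(A) libraries (TruSeq, 500 ng of RNA, paired 75-base reads, per the labels' protocols). The submitters' processing notes name the mouse build mm10, Salmon and DESeq2 1.16.1. The step from transcript to gene totals was not given in the sources used here. Gene-level estimated counts, held as whole numbers, were deposited by the authors beside a second table, of TPM. Genes with shared sequence can trade reads in such estimates, and TPM of a library sum to a fixed total, so a few abundant genes lower all others.

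The 89 genes, their functional groups and all gene lists were chosen with earlier results of these data known. Genes named in full were those of highest share, mean TPM or log2 ratio (ratio of medians, with 0.01 TPM added), and those of highest or lowest share within batch 1, and other members were named once. Tests ran on the deposited counts with edgeR 4.0.16 in R 4.3.3 (TMM, group and batch terms, quasi-likelihood test, adjusted p under 0.05 over 17899 genes). DESeq2 1.42.0 and limma 3.58.1 were alternatives, limma on log2(TPM + 0.1), as were other thresholds, scalings and subsets of libraries. The edgeR step was tested on simulated counts. Ranks and shares were computed with Python 3.11.15, pandas 2.3.3 and numpy 2.4.6. Counts of at least 100 in every library lay behind 73 of the 89 genes, and 3 had a library under 10 counts. Coordinates are of mm10 (GRCm38).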

Additional observations from a re-analysis of the deposited data

Results flagged for a closer look

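Xlr stood out in 1 library: in the young anti-PDL1 group of 10 tumours, replicate 1 had 3.76 TPM and the nearest other library 2.30 TPM, a gap that was large for the range of that group. This library is the only one of its group from sequencing batch 3, where the young libraries mostly had higher Xlr values than those of batch 1. Of 140 sets of values checked in this way it was the only one found, where chance gives about 1 in 20.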

How the results depend on the processing

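The number of genes that passed the rule was 182 at a share of 0.95 and 23 at 0.99, and 196 with batches 1 and 3 alone, 58 of them among the 89. It was 92 and 79 at a mean TPM of at least 1 and 5, 113 without the 4 libraries of low TMM factor (86 shared), 104 after removing each library's length trend (66 shared), 93 without old isotype replicate 7 (85 shared), and 74 on TMM CPM (6 shared). Genes without overlap on TMM CPM numbered 23 in batch 1, 26 under isotype, 3 under anti-PDL1, 6 under anti-CTLA4 and 18 in batch 3. On TPM, genes without overlap numbered 80 in batch 3 without the libraries of low TMM factor. Leaving out each young batch 1 library in turn gave 78 to 89 in batch 1 on TPM. A smaller group overlaps less readily, and the shares over all genes are not given for these subsets. For anti-PDL1 in young mice 2 of the 89 genes passed with DESeq2's size factors in edgeR, where 312 of all genes did. With no batch term 1 passed, where 284 of all genes did, and with DESeq2 9 passed, where 863 did. For anti-CTLA4 in young mice 3 passed with no batch term, where 1240 of all genes did. In old mice DESeq2 called 8 under anti-PDL1 and 9 under anti-CTLA4, where it called 2047 and 1362 of all genes. The causes were not tested. Of the values of the 27 named genes, 136 kept their direction and size, 5 moved with batches 1 and 3 alone (among them Srek1ip1, Ggps1 and Brix1) and 1 lost its call.

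Same-numbered libraries did not deviate together in every pair (43 of 113 same-number pairs had a correlation over 0.1). Pairs of different numbers were not measured, so this count cannot show whether the numbers pair the tumours. With the replicate block 0 of the 89 genes passed in the batch 2 contrast, where Gm10282 had -0.86 and an adjusted p of 0.0853 by edgeR. TMM CPM for the counts without overlap, the length trend, limma, fits within a batch, leaving out old isotype replicate 7, and those counts lacking libraries of low TMM factor were alternatives chosen after seeing the data. Depth limits Lilra5, Sh3gl3 and Xlr most.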
